A study of Mus musculus with 14 samples.

Results

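Guanylate-binding proteins (GBPs) and immunity-related GTPases (IRGs) were examined in CD11b+ microglia/macrophages after traumatic brain injury (TBI). The members were 8 genes chosen by symbol, *Gbp2*, *Gbp3*, *Gbp5*, *Gbp7*, *Gbp9*, *Igtp*, *Irgm1* and *Iigp1*, of 33939 genes in the table. All 8 were found, and all 8 passed the filter on low values in each comparison. Another 19 genes of the same families, or of a related one in the case of *Gvin1*, were in the table and are described after the members.

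GBPs and IRGs are GTPases that interferons, above all interferon-gamma, induce in macrophages and in most other cell types. Both kinds gather on the membranes of vacuoles that hold bacteria or protozoa, break them open, and expose their content to inflammasome caspases and to autophagy. The IRGM proteins *Irgm1* and *Igtp* (also called Irgm3) sit on the cell's own membranes and keep effector IRGs such as *Iigp1* (Irga6) inactive there. In microglia this group is commonly counted among the interferon-response genes.

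The libraries came from C57BL/6 mice that had received tamoxifen when young, with a waiting period before injury in which blood monocytes are renewed. Control mice (Ctrl) were *Cx3cr1-CreER*+/-, and the conditional knockouts (cKO) were *Cx3cr1-CreER*+/-;*Nhe1* flox/flox, so that both genotypes carried the Cre allele and the drug. The *Cx3cr1* promoter drives this Cre in microglia and also in other cells that express *Cx3cr1*, some monocytes and macrophages among them. The mice were 8 to 12 weeks old and were given a controlled cortical impact, and CD11b+ cells were collected by magnetic beads 3 days later from the contralateral (CL) and the ipsilateral (IL) hemisphere. The CL hemisphere of an injured mouse served as the comparison, and no library of an uninjured mouse was analysed here. The 14 libraries form 4 groups, 4 libraries each for Ctrl CL and Ctrl IL, and 3 each for cKO CL and cKO IL. They carry the numbers of 8 mice, of which 6 gave both hemispheres.

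Values are reads scaled to a total of 1e+06 per library (CPM), as deposited, and groups are given as mean ± SD. Depth ranged from 12.2 to 41.6 M reads, with the IL library of Ctrl mouse 3546 the shallowest. *Itgam*, which encodes CD11b, ranged from 650.3 to 1714 CPM. A list of 8 microglia markers summed to between 25202 and 35143 CPM in the CL and to between 14566 and 17244 CPM in the IL libraries. In bulk RNA of sorted cells, fewer cells of a type and less RNA per cell cannot be told apart.

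The members lie in a few places of the genome (GRCm38, GENCODE gene models). *Gbp5* (chr3:142493978-142522344), *Gbp7* (chr3:142530342-142550149), *Gbp3* (chr3:142560026-142573209) and *Gbp2* (chr3:142620602-142638008) follow each other on the plus strand. *Gbp9* (chr5:105077630-105139539) is on the minus strand. *Irgm1* (chr11:48861968-48871683) is on the minus and *Igtp* (chr11:58199556-58207591) on the plus strand. Reads could be split between neighbours in a few cases. The *Igtp* exons overlap those of *Irgm2* over 162 bases, and 11.8% of the 50-base words in *Igtp* transcripts also occur in *Irgm2* transcripts. For *Gbp7* 12.7% and for *Gbp9* 8.05% of such words occur in another gene, and for the other members at most 3.75%. Whether the counting kept strands apart is not given in the sources used here.

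Promoter windows of 300 bases, 250 before and 50 after a RefSeq start site (GRCm38.p6), were on hand for 6 members. They were searched on both strands for the interferon-stimulated response element (ISRE, letters GAAANNGAAA), which interferon regulatory factors bind, and for the gamma-activated site (GAS, letters TTCNNNGAA). All 6 members had an ISRE match in a window, and 3 of 6 (*Gbp5*, *Gbp7* and *Igtp*) also had a GAS match. By window, 6 of 7 held an ISRE match and 3 of 7 a GAS match, since the window of a second *Gbp3* start site held neither. Of 10 other genes of these families with a window, 6 had an ISRE match and 4 a GAS match. Of all 32544 RefSeq promoter windows of the same length, 3.45% held an ISRE match, 8.33% a GAS match and 0.455% both. A match is a description of the letters and not a bound site. The 180 bases before the start site are shown for the pair of genes that were higher in the IL hemisphere of each mouse, *Irgm1* and *Gbp2*, and for *Igtp* and *Gbp7*, which were lower there in each Ctrl mouse. Capitals mark the ISRE and GAS matches, and each sequence is read 5′ to 3′ on the strand of its gene.
*Irgm1* (chr11:48871421-48871600, minus strand): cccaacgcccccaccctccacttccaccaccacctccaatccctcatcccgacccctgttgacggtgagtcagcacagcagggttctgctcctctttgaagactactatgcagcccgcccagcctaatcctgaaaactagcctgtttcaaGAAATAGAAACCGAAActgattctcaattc
*Gbp2* (chr3:142620483-142620662, plus strand): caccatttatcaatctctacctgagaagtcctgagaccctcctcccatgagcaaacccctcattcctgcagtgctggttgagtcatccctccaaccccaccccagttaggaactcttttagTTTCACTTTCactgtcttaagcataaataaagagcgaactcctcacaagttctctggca
*Igtp* (chr11:58199376-58199555, plus strand): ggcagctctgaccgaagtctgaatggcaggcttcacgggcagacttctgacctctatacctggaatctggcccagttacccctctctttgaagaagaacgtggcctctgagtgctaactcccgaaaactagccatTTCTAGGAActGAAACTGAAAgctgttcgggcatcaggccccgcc
*Gbp7* (chr3:142530156-142530335, plus strand): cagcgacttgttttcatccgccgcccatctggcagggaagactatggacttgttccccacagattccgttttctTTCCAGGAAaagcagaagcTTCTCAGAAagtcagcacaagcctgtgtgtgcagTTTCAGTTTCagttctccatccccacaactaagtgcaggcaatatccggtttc

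In these windows *Irgm1* had a pair of ISRE matches that overlap, GAAATAGAAA from -30 and GAAACCGAAA from -24 relative to the start site, and *Gbp2* had TTTCACTTTC from -59. *Igtp* had the GAS match TTCTAGGAA from -45, followed after a short gap by the ISRE match GAAACTGAAA from -34. *Gbp7* had the GAS matches TTCCAGGAA from -106 and TTCTCAGAA from -87, and the ISRE match TTTCAGTTTC from -53. *Gbp3* had a pair of overlapping ISRE matches from -45 and -39, and *Gbp5* had GAS matches from -245 and -52 and an ISRE match from -165. Members with higher and with lower levels in the IL hemisphere thus both held ISRE matches. No window was on hand for *Gbp9* and *Iigp1*.

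Per kilobase of exon, *Igtp* was the most abundant member in Ctrl CL, at 41.9 ± 7.57 CPM per kb (n = 4). *Irgm1* (12.7 ± 4.38), *Gbp7* (12.5 ± 3.98), *Gbp3* (11.2 ± 1.31), *Gbp2* (8.29 ± 3.14) and *Gbp9* (7.64 ± 1.51 CPM per kb) followed, and neighbours in that order differed by less than the larger of their SDs. *Iigp1*, at 0.789 ± 0.380, and *Gbp5*, at 0.406 ± 0.179 CPM per kb, were the least abundant. In cKO IL the order began with *Igtp* (37.5 ± 8.66), *Irgm1* (21.6 ± 4.67) and *Gbp2* (17.6 ± 5.81 CPM per kb, n = 3), again with *Iigp1* (1.24 ± 0.306) and *Gbp5* (0.679 ± 0.121) last. The summed level of the 8 members was 333 ± 38.3 CPM in Ctrl CL, 284 ± 31.5 in Ctrl IL, 305 ± 24.7 in cKO CL and 369 ± 71.2 CPM in cKO IL. The sums of all 4 groups overlapped.

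The first question was how the injury changed these genes, read as IL against CL within each genotype. The members did not move together. *Irgm1*, which guards the cell's own membranes, and *Gbp2* were higher in the IL than in the CL hemisphere in each of the 6 mice that gave both. *Gbp7* was lower in each of the 6. The share of all genes with the same direction in all 6 mice was not computed. *Igtp* and *Gbp9* were lower in the IL hemisphere of each of the 4 Ctrl mice and went either way in the cKO mice. *Gbp3* stayed near the same level in Ctrl. Log2 fold changes are given on the log2(CPM + 1) scale, with libraries scaled by trimmed means of M-values, and carry standard errors (SE). The p values are those of limma, adjusted by Benjamini-Hochberg over every gene tested. Calls needed an adjusted p of 0.05 or less together with a change of 1.2-fold or more.

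**Figure D1:**
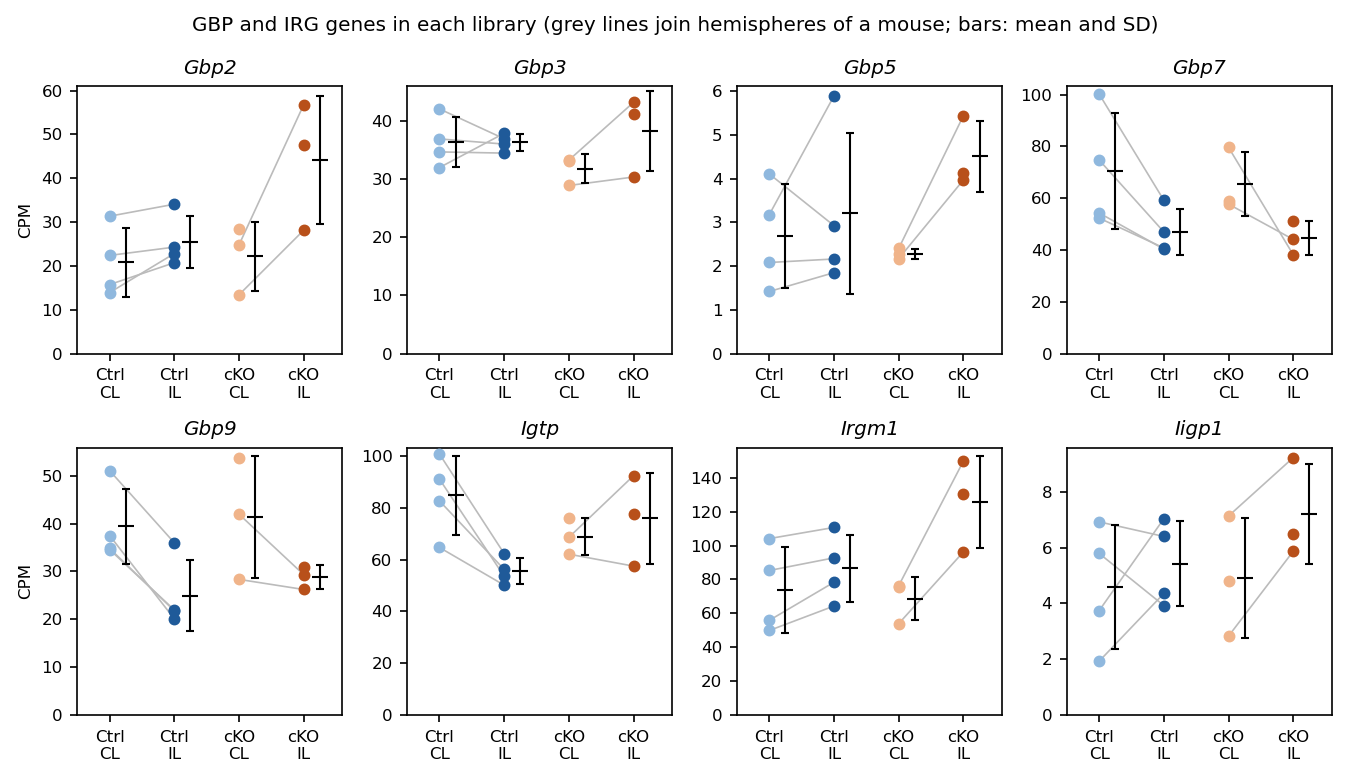
CPM (vertical axis, from 0) of each of the 8 members in the 14 libraries, by group on the horizontal axis. Points are libraries, grey lines join the hemispheres of a mouse, and black bars give the mean and SD. The lines of *Irgm1* and *Gbp2* run upward and those of *Gbp7* downward from CL to IL in all 6 mice.

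Of the 8 members, 0 were called between IL and CL in Ctrl without regard to the mouse, where 6.56% of all 16376 genes tested were called. At an unadjusted p under 0.05 there were 3 members, against 21.1% of all genes. The hemispheres of a mouse are paired, and with the mouse as a block 4 members were called. *Irgm1* was higher, where 9.8% of all genes were called higher, and *Igtp*, *Gbp7* and *Gbp9* were lower, where 10.7% of all genes were called lower. In deposited CPM, the IL and CL groups of Ctrl did not overlap for 1 of 8 members (*Igtp*), against 17.7% of all genes. After scaling they did not overlap for *Gbp7* and *Gbp9*, against 15.1% of all genes, and those of *Igtp* did.

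In cKO, 2 of 8 members were called higher in the IL hemisphere (*Irgm1* and *Gbp5*), where 12.8% of all 16758 genes tested were called higher, and 0 were called lower, where 9.52% of all genes were. When mice were blocked the members called higher were *Irgm1* and *Gbp2*, against 8.87% of all genes, again with 0 lower, against 4.92% of all genes. That fit rests on mice 791 and 3592, since the lone libraries of mice 784 and 788 carry no difference between hemispheres when their numbers are read as separate mice. The IL and CL groups did not overlap in CPM for 3 of 8 members (*Gbp5* and *Irgm1* higher, *Gbp7* lower), against 42.4% of all genes. The calls depended on single libraries. Without the IL library of mouse 784 or that of mouse 791 no member was called (0 of 8), against 10.9% and 11.1% of all genes in either direction, with *Irgm1* at 0.90 (adjusted p = 0.0712) and 0.76 (adjusted p = 0.0709). Without the IL library of mouse 3592 there were 4 calls, against 13.8% of all genes, which added *Gbp2* (1.40, adjusted p = 0.0289) and *Gbp3* (0.54, adjusted p = 0.0369). Leaving out the CL library of mouse 791 gave 3 calls, against 17.3% of all genes, which added *Gbp9* (-0.62, adjusted p = 0.0370). A single fit of all 14 libraries gave 0 calls, against 7.53% of all genes. The same fit with random mice gave 3 calls, against 16.7% of all genes, *Gbp2* (1.12, adjusted p = 0.0142), *Irgm1* (0.98, adjusted p = 0.0128) and *Gbp5* (0.84, adjusted p = 0.0179).

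**Figure D2:**
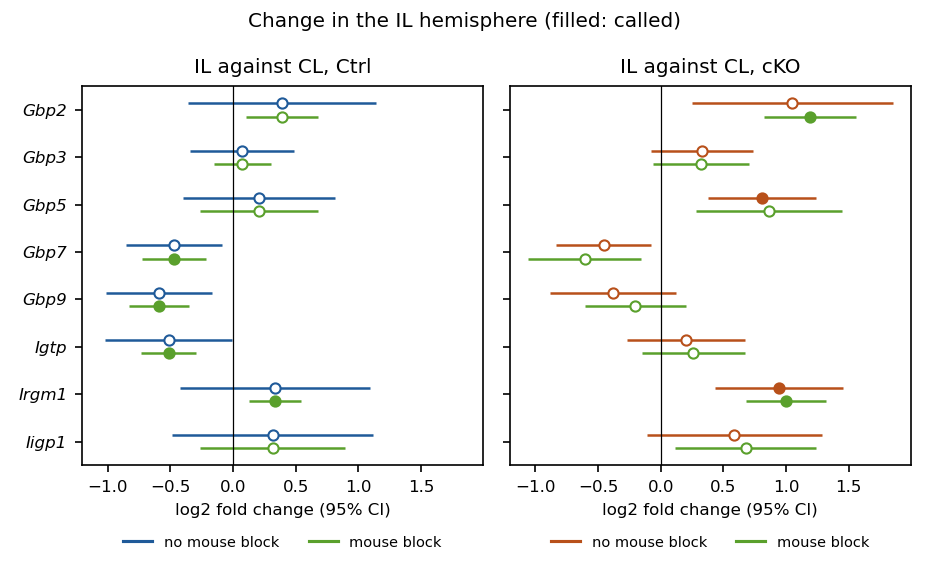
Log2 fold change of IL against CL with its 95% confidence interval (horizontal axis) for each member in Ctrl (left) and cKO (right), with and without the mouse as a block. Filled points were called. In Ctrl the blocked estimates of *Gbp7*, *Gbp9* and *Igtp* lie below 0 and that of *Irgm1* above 0, and in cKO those of *Irgm1* and *Gbp2* lie near or above 1.

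*Irgm1* was at 104, 85.3, 55.9 and 49.9 CPM in the CL hemispheres of Ctrl mice 3541, 3545, 3546 and 3551, and at 111, 92.8, 78.4 and 64.3 CPM in their IL hemispheres. The cKO libraries held 75.5, 76.3 and 53.9 CPM in CL for mice 788, 791 and 3592, and 131, 149.8 and 96.3 CPM in IL for mice 784, 791 and 3592. The Ctrl mice kept the same order in both hemispheres and the groups overlapped, whereas each cKO IL library lay above each cKO CL library. In Ctrl the log2 fold change of *Irgm1* was 0.33 (SE 0.34, adjusted p = 0.661) without and 0.33 (SE 0.09, adjusted p = 0.0382) with the block. With the mouse as a random effect in a fit of all libraries it was 0.36 (SE 0.20, adjusted p = 0.216), and the Ctrl call of *Irgm1* was lost. The cKO value was 0.94 (SE 0.22, adjusted p = 0.0197), and 0.998 (SE 0.14, adjusted p = 0.00427) with the block.

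*Gbp2*, a prenylated GBP that inserts into vacuole membranes, followed *Irgm1* closely. It was at 31.3, 22.4, 13.9 and 15.7 CPM in Ctrl CL and at 34.1, 24.3, 22.8 and 20.7 CPM in Ctrl IL, with the mice in the order above. The cKO CL libraries held 28.5, 24.8 and 13.4 CPM and the cKO IL libraries 47.5, 56.8 and 28.1 CPM. The lowest cKO IL library, that of mouse 3592, came from the mouse that was also lowest in CL, and it lay just under the highest cKO CL library. The log2 fold change of *Gbp2* was 0.39 (SE 0.34, adjusted p = 0.588) in Ctrl, and 0.39 (SE 0.12, adjusted p = 0.0650) with the block. In cKO it was 1.05 (SE 0.35, adjusted p = 0.0640), which became 1.19 (SE 0.16, adjusted p = 0.00394) with the block. Within mice 791 and 3592 the difference between hemispheres was 1.36 and 1.05 on the log2 scale, against 0.19 to 0.70 within the 4 Ctrl mice.

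*Gbp7*, which has been tied to autophagy and to the assembly of the phagocyte oxidase, moved the other way. It was at 54.3, 52.3, 100.2 and 74.8 CPM in Ctrl CL and at 40.4, 40.8, 59.2 and 47.0 CPM in Ctrl IL. In cKO it was at 58.9, 57.7 and 79.6 CPM in CL and at 51.3, 44.1 and 38.2 CPM in IL. Both hemispheres of Ctrl mouse 3546 were the highest of their group, and each cKO IL library lay below each cKO CL library. In Ctrl *Gbp7* had a log2 fold change of -0.47 (SE 0.17, adjusted p = 0.145), and -0.47 (SE 0.11, adjusted p = 0.0234) with the block. The cKO value was -0.46 (SE 0.17, adjusted p = 0.0841), and -0.61 (SE 0.20, adjusted p = 0.0765) with the block.

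*Gbp9* was at 34.8, 34.6, 51.1 and 37.5 CPM in Ctrl CL and at 21.8, 21.96, 36.0 and 20.1 CPM in Ctrl IL. In cKO the CL libraries held 53.8, 28.3 and 42.0 CPM and the IL libraries 31.0, 26.2 and 29.3 CPM. Mouse 3546 was again the highest of the Ctrl mice in both hemispheres, and its IL library, the shallowest of all, overlapped the Ctrl CL group. In Ctrl *Gbp9* had a log2 fold change of -0.59 (SE 0.19, adjusted p = 0.102), and -0.59 (SE 0.10, adjusted p = 0.00793) with the block. Without that IL library it was -0.71 (adjusted p = 0.0407). For cKO the change was -0.38 (SE 0.22, adjusted p = 0.249), with mouse 791 at 0.09 and mouse 3592 at -0.47 on the log2 scale.

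*Igtp*, the IRGM protein of lipid droplets and the endoplasmic reticulum, was at 101, 91.0, 82.6 and 64.7 CPM in Ctrl CL and at 62.3, 53.5, 56.2 and 50.1 CPM in Ctrl IL. The cKO CL libraries held 76.0, 68.6 and 62.1 CPM and the cKO IL libraries 77.8, 92.4 and 57.5 CPM. The Ctrl groups did not overlap, with each IL library lower, while the cKO IL libraries lay on both sides of the cKO CL libraries. The log2 fold change of *Igtp* was -0.51 (SE 0.23, adjusted p = 0.225) in Ctrl, and -0.51 (SE 0.09, adjusted p = 0.0101) with the block. For cKO the change was 0.20 (SE 0.21, adjusted p = 0.524). On deposited CPM without further scaling it was -0.59 in Ctrl (adjusted p = 0.0454).

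*Gbp5*, a prenylated GBP linked to the NLRP3 inflammasome, was low in each library. It was at 1.42, 2.08, 3.18 and 4.11 CPM in Ctrl CL, at 1.85, 2.16, 5.89 and 2.92 CPM in Ctrl IL, at 2.27, 2.40 and 2.17 CPM in cKO CL and at 4.13, 5.44 and 3.97 CPM in cKO IL. The cKO groups did not overlap, but the Ctrl libraries spanned a wider range than both of them. The log2 fold change of *Gbp5* was 0.21 (SE 0.27, adjusted p = 0.754) in Ctrl and 0.80 (SE 0.19, adjusted p = 0.0190) in cKO, where it was 0.86 (SE 0.25, adjusted p = 0.0583) with the block.

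*Iigp1* (chr18:60376027-60392634, plus strand), the effector IRG that loads onto vacuoles, was at 6.92, 5.79, 3.74 and 1.93 CPM in Ctrl CL and at 6.40, 3.93, 7.04 and 4.36 CPM in Ctrl IL. In cKO it was at 4.82, 7.13 and 2.83 CPM in CL and at 6.50, 9.22 and 5.87 CPM in IL. The groups overlapped in both genotypes. *Iigp1* had a log2 fold change of 0.32 (SE 0.36, adjusted p = 0.706) in Ctrl and 0.59 (SE 0.30, adjusted p = 0.202) in cKO.

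*Gbp3* varied least. It was at 42.1, 36.9, 32.0 and 34.7 CPM in Ctrl CL, at 36.9, 36.0, 37.9 and 34.5 CPM in Ctrl IL, at 33.2, 33.3 and 28.9 CPM in cKO CL and at 41.3, 43.2 and 30.4 CPM in cKO IL. The Ctrl IL libraries lay within the range of the Ctrl CL libraries. The log2 fold change of *Gbp3* was 0.07 (SE 0.19, adjusted p = 0.896) in Ctrl, with a 95% interval of -0.34 to 0.49, and 0.33 (SE 0.18, adjusted p = 0.218) in cKO.

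**Figure D3:**
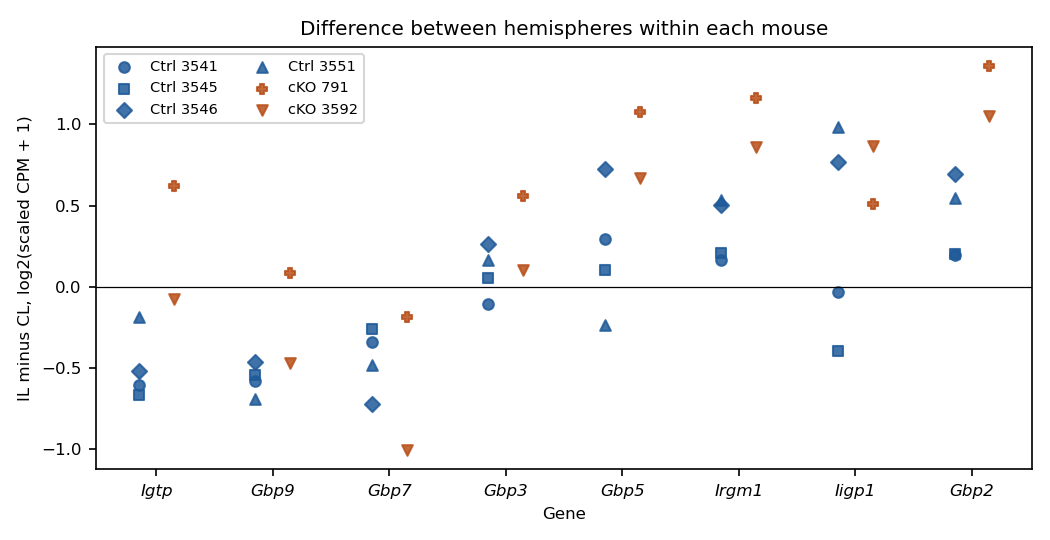
Difference between the IL and the CL library of each mouse on the log2(CPM + 1) scale after scaling (vertical axis) for each member, for 4 Ctrl and 2 cKO mice. All 6 mice lie above 0 for *Irgm1* and *Gbp2* and below 0 for *Gbp7*, and the 4 Ctrl mice lie below 0 for *Igtp* and *Gbp9*.

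The next question was whether the members differed between genotypes in either hemisphere. In the IL hemisphere the cKO means were higher than the Ctrl means for 7 of 8 members, where 52.1% of all genes had a log2 fold change above 0, most for *Gbp2* (44.2 ± 14.6 against 25.5 ± 5.92 CPM) and *Irgm1* (126 ± 27.1 against 86.6 ± 19.9 CPM). No member passed the test (0 of 8), where 0.662% of 16919 genes did, and 1 member had an unadjusted p under 0.05, against 8.91% of all genes. The log2 fold change of *Gbp2* was 0.75 (SE 0.31, adjusted p = 0.529), with a 95% interval of 0.03 to 1.47. That of *Irgm1* was 0.55 (SE 0.28, adjusted p = 0.640), that of *Gbp5* 0.49 (SE 0.27, adjusted p = 0.687) and that of *Igtp* 0.43 (SE 0.22, adjusted p = 0.632). For *Irgm1* and *Gbp2*, mice 784 and 791 lay above all Ctrl IL libraries while mouse 3592 lay within them. The cKO and Ctrl groups overlapped in CPM for all 8 members, and 10.3% of all genes did not overlap.

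The remaining members differed less in the IL hemisphere. *Iigp1* was at 7.20 ± 1.78 CPM in cKO and 5.43 ± 1.52 in Ctrl (log2 fold change 0.37, SE 0.25, adjusted p = 0.780). *Gbp9* was at 28.9 ± 2.43 and 25.0 ± 7.41 CPM (0.25, SE 0.17, adjusted p = 0.793), *Gbp3* at 38.3 ± 6.92 and 36.3 ± 1.45 CPM (0.07, SE 0.18, adjusted p = 0.964) and *Gbp7* at 44.5 ± 6.55 and 46.8 ± 8.80 CPM (-0.05, SE 0.15, adjusted p = 0.966). The 95% interval for *Gbp7* ran from -0.39 to 0.29, so a change of such a size in either direction remains possible.

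In the CL hemisphere 0 of 8 members were called between cKO and Ctrl, where 0.873% of 16603 genes were, and 0 had an unadjusted p under 0.05, against 9.81% of all genes. The log2 fold changes ran from -0.29 (SE 0.22, adjusted p = 0.726) for *Igtp*, at 68.9 ± 6.99 CPM in cKO and 84.8 ± 15.3 in Ctrl, to 0.10 (SE 0.40, adjusted p = 0.949) for *Iigp1*. The 95% intervals were wide, from -0.72 to 0.88 for *Gbp2* and from -0.76 to 0.62 for *Irgm1*. The groups overlapped in CPM for all 8 members, and 9.99% of all genes did not overlap.

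**Figure D4:**
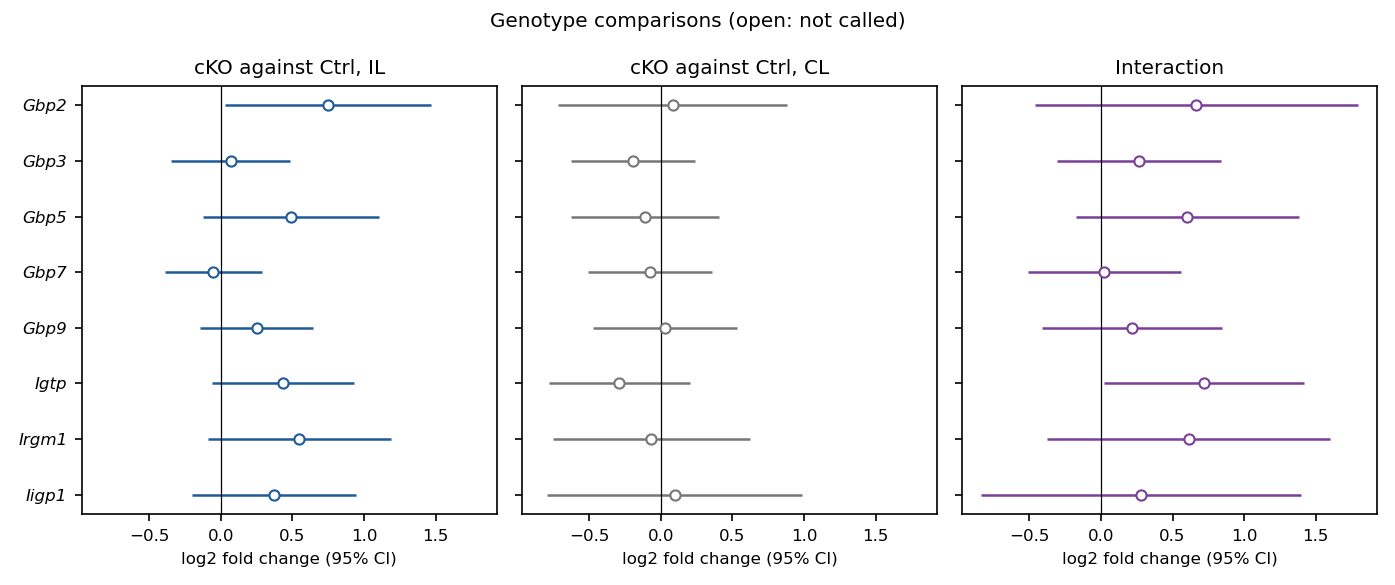
Log2 fold change with its 95% confidence interval (horizontal axis) for each member between cKO and Ctrl in the IL (left) and CL (middle) hemisphere, and the genotype by hemisphere interaction (right). All points are open, since no member was called. In IL, 7 of 8 estimates lie above 0.

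Whether the change between hemispheres differed between genotypes was tested as the interaction over all 14 libraries. No gene was called (0 of 18476, 0%), and so 0 of 8 members were, with 481 genes and 1 member at an unadjusted p under 0.05 in limma. Taking the mouse as random, there were also 0 members called, against 3 of 18476 genes (0.0162%), and 1200 genes and 2 members had an unadjusted p under 0.05. All 8 interaction estimates were above 0, as were 57.3% of those of all genes, and with mouse taken as random 7 of 8 were. The largest was that of *Igtp*, 0.72 (SE 0.33, adjusted p = 0.9999), or 0.74 (SE 0.24, adjusted p = 0.610) with random mice. *Gbp2* followed at 0.67 (SE 0.53, adjusted p = 0.9999) and *Irgm1* at 0.61 (SE 0.46, adjusted p = 0.9999). The genotypes were therefore not shown to differ in how any member changed between hemispheres.

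Across the 14 libraries, which share 6 mice between hemispheres, some members varied together. These correlations are descriptions over libraries that differ in group and depth. The set of 5 genes below was picked from these same values, so its high r follows from that choice. How often other gene pairs reach such r was not computed. *Irgm1* and *Gbp2* had a Pearson r of 0.96, and over the 10 pairs among *Gbp2*, *Gbp3*, *Igtp*, *Irgm1* and *Iigp1* r ran from 0.54 to 0.96. With the group means subtracted, the same 10 pairs had r from 0.72 to 0.95, and *Igtp* with *Irgm1* went from 0.59 to 0.94. *Gbp7* and *Gbp9* had r = 0.68 with each other, or 0.43 with group means subtracted, and *Gbp7* had r = -0.62 with *Irgm1*, or -0.37. *Gbp5* had r from -0.26 to 0.28 with the other members, and with group means subtracted from -0.54 with *Irgm1* to 0.40 with *Gbp7*. All 5 genes of the picked set were higher in both hemispheres of cKO mouse 791 than in those of mouse 3592.

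**Figure D5:**
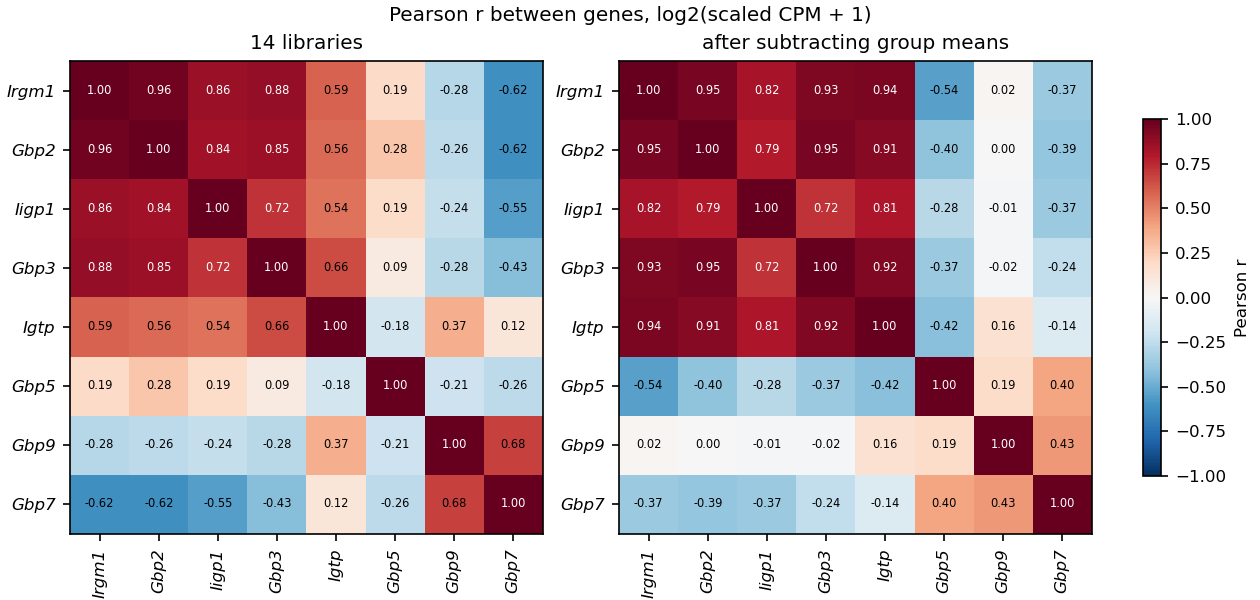
Pearson r between each pair of members over the 14 libraries (left) and after the mean of each group was subtracted (right), with genes on both axes and colour from -1 to 1. *Irgm1*, *Gbp2*, *Iigp1*, *Gbp3* and *Igtp* form a block of high r in both panels, and *Gbp5*, *Gbp7* and *Gbp9* lie outside it.

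Among 18468 other genes, those closest to the mean z score of the 8 members over the 14 libraries were *Tdrd7* (r = 0.88), *Sp110* (r = 0.88), *Naa25* (r = 0.87), *Gm18853* (r = 0.87), *Ddx58* (r = 0.87), *Slfn8* (r = 0.87), *Bin3* (r = 0.87), *Relb* (r = 0.87), *Phf11d* (r = 0.86) and *Exoc1* (r = 0.85). *Ddx58* encodes the RNA sensor RIG-I. This mean stands mostly for 5 of the members, since r with the mean of the other members was 0.65 to 0.75 for those but 0.02 for *Gbp5*, -0.05 for *Gbp9* and -0.36 for *Gbp7*. The gene most like *Gbp2* and *Irgm1* was the same in both cases, *Phf11d* (r = 0.97 and 0.97). The gene most like *Igtp* was *Lyn* (r = 0.92), and that most like *Gbp7* was *Letm2* (r = 0.93).

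Of the 19 other genes of these and related families, 14 passed the filter for IL against CL in Ctrl. There 0 were called higher and 1 lower, against 6.56% of all genes in either direction. With the block 0 were higher and 3 lower, against 9.8% and 10.7% of all genes. The gene called in both fits was *Irgm2*, the remaining IRGM regulator and the neighbour of *Igtp*, which fell from 70.1 ± 9.05 to 38.5 ± 5.33 CPM (log2 fold change -0.78, SE 0.18, adjusted p = 0.0348). In cKO it was at 51.1 ± 10.5 and 33.0 ± 2.48 CPM (-0.51, adjusted p = 0.0648). *Gbp8* (-0.52, adjusted p = 0.0372) and *9930111J21Rik1* (-0.47, adjusted p = 0.0189) were the other calls with the block in Ctrl. *Irgm2* and *Igtp*, whose exons overlap, were thus both lower in Ctrl IL, although *Igtp* was called only with paired mice or on unscaled CPM.

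In cKO, 15 of the 19 passed, with 2 higher and 1 lower, against 12.8% and 9.52% of all genes, and 3 higher and 0 lower with the block, against 8.87% and 4.92%. The counts without the block were thus near those over all genes. *Ifi47*, also called Irg47, was at 8.24 ± 2.48 CPM in CL and 17.1 ± 5.49 in IL (1.04, adjusted p = 0.0366), a call that was lost with the block (0.80, adjusted p = 0.129). *Gm5431* was higher in both fits (0.71, adjusted p = 0.0447, and 0.67, adjusted p = 0.0486 with the block), and *9930111J21Rik1* was lower (-0.55, adjusted p = 0.0180) without the block only. *Gbp6* (1.201, adjusted p = 0.0177) and *Tgtp2* (1.21, adjusted p = 0.00840) were called with the block only. *Gbp6* shares 70.7% of its 50-base words with other genes, *Tgtp2* 86.6% and *9930111J21Rik1* 83.2%, so the split of reads among these copies is uncertain. The tested genes with no call between hemispheres in either fit were *Gbp4*, *Gbp10*, *Tgtp1*, *Gm12250*, *Gm4951*, *9930111J21Rik2*, *Irgq* and *Gvin1*. Between cKO and Ctrl 0 of these genes were called in either hemisphere. The largest difference in IL was that of *Gvin1*, which encodes a very large GTPase outside the GBP and IRG families. It was at 78.8 ± 14.2 CPM in cKO and 37.9 ± 17.1 in Ctrl (1.14, adjusted p = 0.152), and shares 99.2% of its words with other genes. With random mice *Gvin1* was called higher in cKO IL (1.10, adjusted p = 0.0304).

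The counts of the lists that follow are to be read against the shares of all genes called between hemispheres. In Ctrl these were 6.56% in either direction, and 9.8% higher and 10.7% lower with the block. In cKO they were 12.8% higher and 9.52% lower, and 8.87% and 4.92% with the block. Upstream of the members, *Ifng* itself was below the filter in the comparisons of 2 groups, with group means from 0.128 to 0.267 CPM. *Ifngr1*, the ligand-binding chain of its receptor, fell from 926 ± 106 to 514 ± 71.0 CPM in Ctrl (-0.78, adjusted p = 0.0350) and from 758 ± 133 to 337 ± 51.4 CPM in cKO (-1.08, adjusted p = 0.00541). The signalling chain *Ifngr2* was at 281 ± 26.7 and 282 ± 16.5 CPM in Ctrl (0.08, adjusted p = 0.882). *Ifnar1*, of the type I receptor, was higher in cKO IL (0.44, adjusted p = 0.00933), and in Ctrl IL with the block (0.46, adjusted p = 0.00758), whereas *Ifnar2* had a log2 fold change of -0.16 in Ctrl (adjusted p = 0.727). *Ifnb1* was at 1.32 ± 0.422 CPM in Ctrl CL, 1.72 ± 0.715 in Ctrl IL, 2.87 ± 1.13 in cKO CL and 7.29 ± 4.15 CPM in cKO IL, and between hemispheres it was called in cKO with the block (0.90, adjusted p = 0.0469) and with random mice (1.04, adjusted p = 0.0267). With random mice it was also called higher in cKO IL than in Ctrl IL (1.57, adjusted p = 0.0381), which it was not without them (1.52, adjusted p = 0.204).

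Of 14 signalling and transcription factors, 1 was called higher and 0 lower in Ctrl, or 5 higher with the block, and 5 were called higher and 0 lower in cKO, or 4 higher with the block. *Stat2* rose in cKO (0.88, adjusted p = 0.0171) and, with the block, in Ctrl (0.53, adjusted p = 0.0220). *Irf1*, which binds ISRE and drives many GBP genes, was at 176 ± 29.7 CPM in Ctrl CL and 135 ± 23.4 in Ctrl IL (-0.31, adjusted p = 0.454), and its log2 fold change in cKO was 0.03 (adjusted p = 0.888). *Jak1*, *Jak2*, *Irf8* and *Irf9* were not called between hemispheres in either fit. *Nlrc5* rose in both genotypes (1.49, adjusted p = 0.0299 in Ctrl, and 1.01, adjusted p = 0.00872 in cKO), and *Irf7* rose in cKO (2.10, adjusted p = 0.00872). Of 6 feedback inhibitors 0 were called in Ctrl, or 2 higher and 2 lower with the block. There *Usp18*, which restrains the type I receptor (1.19, adjusted p = 0.00204), and *Socs3* (0.45, adjusted p = 0.0268) rose, and *Socs1*, which blocks JAK kinases (-0.76, adjusted p = 0.0251), and *Pias1* (-0.39, adjusted p = 0.0203) fell. In cKO *Usp18* rose (2.10, adjusted p = 0.0152) and *Pias1* fell (-0.43, adjusted p = 0.0184), a call that was lost with the block (-0.37, adjusted p = 0.120).

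Type I interferon-stimulated genes are set beside the members. All 15 of this list had a log2 fold change above 0 between IL and CL in Ctrl, with a median of 1.14 against 0.14 over the members and -0.04 over all genes, and 3 were called higher, or 10 with the block. In cKO the median was 2.001 against 0.46 over the members and 0.02 over all genes, and 11 were called higher, or 13 with the block. *Zbp1*, a nucleic acid sensor, rose by 1.85 (adjusted p = 0.0151) and *Rsad2*, an antiviral enzyme, by 1.81 (adjusted p = 0.0340) in Ctrl. *Ifit2* also rose (1.55, adjusted p = 0.0480), while *Mx1* (1.14, adjusted p = 0.0725) and *Ifit3* (1.64, adjusted p = 0.0943) were called with the block, at adjusted p = 0.00467 and 0.000849. Of the other interferon-gamma targets, 2 of 14 tested were called higher and 0 lower in Ctrl, *Cd274*, which encodes PD-L1 (0.996, adjusted p = 0.0242), and *Nos2* (1.40, adjusted p = 0.0252), and 3 of 13 were called higher in cKO. With the block these counts were 5 of 14 in Ctrl and 5 of 13 in cKO. Between cKO and Ctrl in IL, 0 of 15 type I genes and 0 of 14 other interferon-gamma targets were called, where 0.662% of all genes were. All 15 type I genes and 12 of the 14 others had a log2 fold change above 0, against 52.1% of all genes. The medians were 0.95 and 0.29, against 0.40 over the members and 0.01 over all genes.

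Genes whose products act with GBPs and IRGs follow. Of 7 inflammasome genes, *Nlrp3* rose in Ctrl (0.83, adjusted p = 0.0496) and 3 genes rose in cKO, *Nlrp3*, *Pycard* and *Il1b*. With the block, 2 rose in Ctrl (*Nlrp3* and *Il1b*) and 1 fell, the pore-forming *Gsdmd* (-0.43, adjusted p = 0.00821), and in cKO *Pycard* lost its call (adjusted p = 0.0545). *Casp4*, which encodes the caspase that senses lipopolysaccharide with the help of GBPs, had a log2 fold change of -0.28 in Ctrl (adjusted p = 0.438) and 0.37 in cKO (adjusted p = 0.267). Of 10 genes of the autophagy conjugation system, which places GBPs and IRGs on vacuoles, *Atg7* was called higher in Ctrl (0.86, adjusted p = 0.0246), and *Atg7* and *Gabarap* were called higher in cKO, the latter not with random mice (adjusted p = 0.114). With the block in Ctrl, *Atg7* rose and 2 genes fell, *Atg16l1* (-0.39, adjusted p = 0.0250) and *Map1lc3a* (-0.62, adjusted p = 0.0330). Of 5 prenylation enzymes, which modify proteins such as *Gbp2* and *Gbp5*, 0 were called in either genotype with or without the block, with medians of 0.06 in Ctrl and -0.09 in cKO.

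Markers of cell types also differed between hemispheres. Of 8 microglia markers 6 fell and 0 rose in each genotype (median -0.96 in Ctrl and -0.92 in cKO). Of 6 infiltrating monocyte markers 2 rose and 0 fell in each genotype, or 4 in cKO with the block, and their sum ran from 228 to 748 CPM in Ctrl CL, 369 to 594 in Ctrl IL, 131 to 338 in cKO CL and 276 to 465 CPM in cKO IL. The 8 neutrophil markers summed to 1167 to 4146 CPM in Ctrl CL, 763 to 1015 in Ctrl IL, 964 to 1483 in cKO CL and 712 to 914 CPM in cKO IL, with 0 called in Ctrl, or 6 lower with the block, and 4 called lower in cKO, or 5 with the block and 0 with random mice. *Csf3r* was the largest part of the sum in each IL library, at 553 ± 169 CPM in Ctrl IL against 690.4 ± 194 in Ctrl CL, while *S100a9* was at 116 ± 108 and 725 ± 585 CPM. The 10 T and NK cell markers, among them *Gzmb* and *Nkg7*, summed to 13.1 to 23.0 CPM in Ctrl CL, 6.02 to 7.40 in Ctrl IL, 6.57 to 12.9 in cKO CL and 5.27 to 16.3 CPM in cKO IL. In Ctrl 4 of 6 tested fell, or 5 with the block. In cKO 0 of 8 tested were called, with or without the block, and 1 fell with random mice. Of 4 oligodendrocyte markers 0 were called in Ctrl (median -0.34), or 1 lower with the block. In cKO 2 of them rose (median 0.50), or 0 with the block and 1 with random mice. Of 6 endothelial markers 0 were called in either genotype, or 1 lower in Ctrl with the block, with medians of -0.49 in Ctrl and 0.20 in cKO. Without the block 1 of 5 astrocyte markers rose and 1 fell in each genotype. No marker of these lists was at 0 in all libraries of a group. The part of these shifts in the changes of the members was not tested.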

How the data were processed

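The libraries were made with a Smart Seq v4 kit from CD11b+ cells and sequenced in pairs of reads. The submitters' processing notes name STAR, Partek 8.0 and mm10 (GRCm38). The authors deposited a table called raw counts, but each library sums to 1e+06, so the deposited values are CPM. Between 75.3% and 81.1% of values under 100 reads are whole multiples of 1 step per library (tolerance 0.03), which gave the depth. The remaining reads are fractional, so count tests were not run. The authors also deposited tables of their own comparisons, with fold changes and p values, which were not used.

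Symbols came from gene annotation, which matched 33802 of 33939 identifiers. CPM were divided by factors from the trimmed mean of M-values, without weights (30% of M and 5% of A values trimmed), and log2(CPM + 1) was fitted by limma 3.58.1 in R 4.3.3 with a trend, using only the groups compared. The scale makes changes of low genes smaller. Genes entered with the CPM of 10 reads at median depth in a number of libraries equal to the size of the smaller group, and 15 reads in total. The fit was tested on simulated data. Mice were taken as paired because the hemispheres came from the same animal. The deviations of their libraries from the group means had r from 0.187 to 0.596 in 6 mice, against -0.519 to 0.494 over 19 pairs of different mice. Subtracting the means of such small groups lowers r between different mice, so this contrast is partly built in. Each n counts libraries of separate mice within a group. Without the block, p values measure the spread between libraries of a group, and between hemispheres they treat paired libraries as independent. With the block, they measure the spread of the differences within mice. The levels of the targeted gene and of 1 signalling gene are not reported here. Mouse numbers 784 (IL only) and 788 (CL only) were taken as different mice, although their libraries had r = 0.183, near the 0.187 of mouse 791. Were they the same mouse, there would be 1 mouse fewer and 1 more cKO pair in the blocked fit, which was not run. Precision is limited by 3 to 4 mice a group and, for *Gbp5* and *Iigp1*, by depth. Python 3.11.15 did the remaining steps.

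The members and lists were chosen with earlier results of these data known. Named genes were all members, all tested family genes, set genes of the interferon pathway, up to 5 genes a list by smallest p between hemispheres in Ctrl, and the 10 closest in pattern. *Casp4*, *Pycard*, *Gabarap*, *Phf11d* for single members, *Lyn* and *Letm2* were named after their values were seen. The set of 5 members that varied together was also formed after the correlations were seen. Alternatives were deposited CPM without scaling, upper-quartile scaling, pseudocounts of 0.5 and 0.1, other filters, a single fit of all 14 libraries with and without random mice, the mouse block, and leaving out each library.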

Additional observations from a re-analysis of the deposited data

Results flagged for a closer look

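*Gbp9* in the IL library of Ctrl mouse 3546, at 36.0 CPM, stood apart from the other 3 Ctrl IL libraries (20.1, 21.8 and 21.96 CPM). Its gap to the nearest of them was 0.882 of the range of the group, above Dixon's critical value at the 95% level. It was 1 of 16 groups of 4 libraries tested, and chance alone is expected to give about 5% of such groups. The CL library of the same mouse was also the highest of its group. This IL library had the fewest reads, 12.2 M, and the part of depth in this value was not tested.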

How the results depend on the processing

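Between IL and CL in Ctrl, 0 members were called as reported, 1 on deposited CPM without further scaling, 3 with random mice and 4 with the mouse as a replicate block, against 6.56%, 8.79%, 23.0% and 20.5% of all genes, and 0 to 1 when libraries were left out (1 without the IL library of mouse 3546). In cKO 2 were called, 1 with no filter beyond 1 read, 0 in a single fit of all 14 libraries, 3 with random mice, 3 without further scaling and 2 with the block, against 22.4%, 7.96%, 7.53%, 16.7%, 22.6% and 13.8% of all genes, and 0 to 4 when libraries were left out. Between genotypes and for the interaction, 0 were called under all alternatives run. With the block *Gbp2* was gained and *Gbp5* lost in cKO. Genes called ran from 552 to 4256 in Ctrl (1074 as reported), 1391 to 3831 in cKO (3746), 66 to 190 between genotypes in IL (112) and 86 to 290 in CL (145) over settings with all libraries, and from 485 to 1413, 1882 to 3538, 46 to 284 and 70 to 168 when libraries were left out. A lone library was assumed to vary like the others.

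Small log2 fold changes turned sign. Leaving out libraries gave -0.0081 to 0.19 for *Gbp3* and -0.013 to 0.36 for *Gbp5* between hemispheres in Ctrl, and -0.056 to 0.27 for *Gbp3* and -0.17 to 0.10 for *Gbp7* between genotypes in IL. In CL it gave -0.15 to 0.42 for *Gbp2*, -0.26 to 0.032 for *Gbp5*, -0.20 to 0.078 for *Gbp7*, -0.21 to 0.28 for *Gbp9*, -0.27 to 0.17 for *Irgm1* and -0.21 to 0.40 for *Iigp1*. The interaction ran from -0.15 to 0.17 for *Gbp7*, -0.034 to 0.44 for *Gbp9* and -0.0058 to 0.58 for *Iigp1*. With upper-quartile scaling *Gbp7* was at 0.0003 and *Irgm1* at 0.011 between genotypes in CL, and the *Gbp7* interaction was -0.076, against -0.034 with random mice. The cause was not tested. *Gbp5* and *Iigp1*, at under 10 CPM in each library, rest on the fewest reads.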
